A study of Mus musculus with 9 samples.

Results

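The SLC25 family of mitochondrial carriers was followed in the liver RNA of ApoE-/- mice. Members were taken as the gene IDs of the count table that GENCODE M21 lists as protein coding with a symbol beginning Slc25a, apart from 3 genes that the choice of members left out. This gave 44 members of the 54532 gene IDs in the table. The filter on low counts kept 38 of them for testing, and the other 6 are given by their counts alone.

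The study compared livers of male ApoE-/- mice on the C57BL/6 background in 3 groups of 3 libraries, each library from 1 mouse, so the control groups carry the Apoe deletion too. One group ate a normal diet, and neither its age at death nor any injections it had are given. The other groups (HFD + PBS and HFD + IgG1) ate food with 41% of its calories as fat from 4 weeks of age for 20 weeks and then had 1 week of chow. They were injected intraperitoneally with PBS or with 3 mg of recombinant human IgG1 at 25, 26 and 27 weeks and were killed at 29 weeks. The series text gives the 3 livers of each group as picked by Oil Red O staining and triglyceride results, so they are not a random draw of the mice. The sample labels of HFD + IgG1 replicate 5 read IgG1, while those of replicates 6 and 7 read IgG2 and IgG3.

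SLC25 proteins are encoded in the nucleus and most of them sit in the inner mitochondrial membrane, where each moves or exchanges a small set of metabolites. In hepatocytes they carry ATP out for the cytosol, citrate out for fatty acid and sterol synthesis, the malate and aspartate of the reducing-equivalent shuttle, the amino acids of urea and glucose synthesis, and cofactors such as coenzyme A, NAD and S-adenosylmethionine in. Several members still have no settled substrate, and a few sit in other membranes.

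Library totals ran from 16215194 to 18538463 counts and 14763 genes were tested. In 3 libraries marker genes went against the labels. The library labelled HFD + IgG1 replicate 5 held 235888 Apoe counts where the other 8 held 225 to 1655, and the libraries labelled normal diet replicate 5 and HFD + PBS replicate 6 held 17065 and 10970 Xist counts and 0 counts of 4 Y-linked genes (Ddx3y, Eif2s3y, Kdm5d, Uty), in a study of male mice. Results are therefore also given without these 3, called the discordant libraries below. Liver identity was clear in all libraries, with a median Alb level of 64900 CPM (counts scaled by library total and TMM factor), while the skeletal muscle genes Ckm, Myh4 and Mb were at 0 throughout. Summed over 8 neutrophil markers, levels ran from 35.6 to 190 CPM in the normal diet group, 431 to 4190 with HFD + PBS and 13.2 to 630 with HFD + IgG1. For 8 macrophage markers the sums were 944 to 1270, 1570 to 2420 and 407 to 1700 CPM, and for 5 cholangiocyte markers 53.9 to 75.5, 140 to 253 and 61.6 to 101 CPM, in the same order. The cholangiocyte sum was mostly Spp1 (38.9 to 226 CPM over the 9 libraries). Sox9 reached at most 19.1, Epcam 6.84, Krt7 3.44 and Krt19 3.14 CPM. HFD + PBS replicate 3 held the highest sum of all 3 lists, and within its own group HFD + IgG1 replicate 6 did. In bulk liver, fewer cells of a type and less RNA per cell cannot be told apart.

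Expression of the family was concentrated in a few carriers (plot of levels by library). Genes were compared roughly by mean CPM per kb of exon, with all annotated exons of a gene joined. On this scale Slc25a5, the main ADP/ATP carrier of non-muscle tissue, had 163. Slc25a47, a liver-enriched member, followed with 120, Slc25a39, which is needed for glutathione import, with 108, the citrate carrier Slc25a1 with 63.3 and the phosphate carrier Slc25a3 with 44.1. These 5 genes made up 61% of the summed family level per kb and the first 10 made up 80.7%. Joined exons can be longer than the transcript that is expressed, so order and shares depend on this length. By mean CPM alone Slc25a47 led with 357, before Slc25a39 (297), Slc25a5 (268) and Slc25a3 (245). The order among the leaders was not fixed across libraries, because Slc25a47 and Slc25a39 overlapped in their per-library values. At the other end, Slc25a41 had 0 counts in all 9 libraries, which allows up to 3 counts in each. Slc25a54 had 1 count in 1 library, Slc25a31 and Slc25a18 had at most 5 counts in any library, and Slc25a43 at most 10. Slc25a31 is the testis ADP/ATP carrier, Slc25a41 a short ATP-Mg/phosphate carrier and Slc25a18 a glutamate carrier of brain. The ornithine carrier Slc25a2 reached 19 counts in normal diet replicate 4, of 29 over all 9 libraries.

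**Figure D1:**
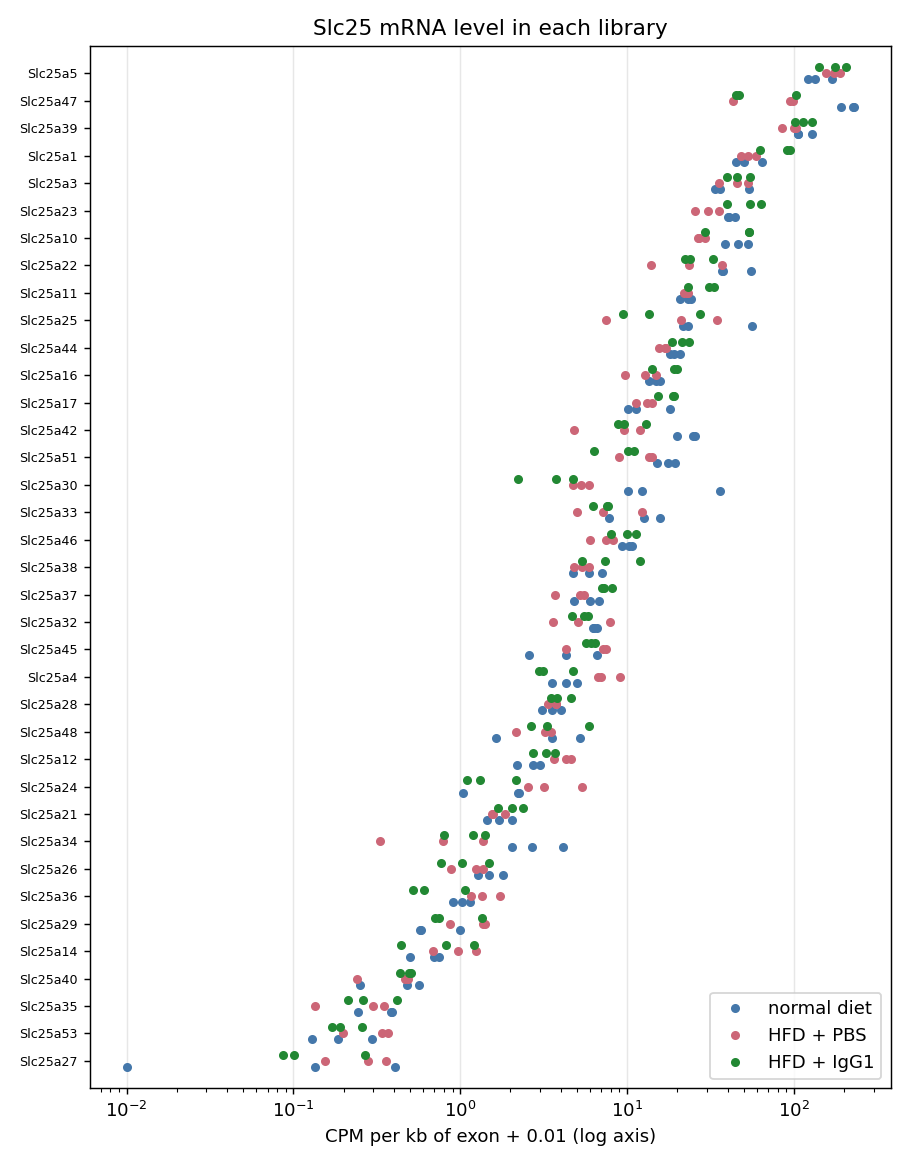
Level of tested Slc25 genes in each of the 9 libraries, as CPM per kb of exon plus 0.01 on a log axis, ordered by the mean, with 1 point per library coloured by group. Slc25a5 (mean 163), Slc25a47 (120) and Slc25a39 (108) lead, and the normal diet points of Slc25a47, Slc25a42 and Slc25a34 lie apart from those of both high-fat groups.

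Before the comparisons, the promoters of 5 members that these turn on are shown, picked after their values were seen. They are Slc25a42 (ENSMUSG00000002346), Slc25a47 (ENSMUSG00000048856), Slc25a34 (ENSMUSG00000040740) and Slc25a30 (ENSMUSG00000022003), the 4 members with the most negative log2 fold changes in HFD + PBS against normal diet, and Slc25a4 (ENSMUSG00000031633), which had the smallest p in HFD + IgG1 against HFD + PBS. Each is 250 bases before to 50 bases after the RefSeq start on GRCm38.p6, written 5′ to 3′ along the gene. The windows are chr8:70212232-70212531 (minus strand) for Slc25a42, chr12:108850879-108851178 (plus strand) for Slc25a47, chr4:141623785-141624084 (minus strand) for Slc25a34, chr14:75786988-75787287 (minus strand) for Slc25a30 and chr8:46211013-46211312 (minus strand) for Slc25a4. The window of Slc25a47 lies inside the longer gene of GENCODE M21, which begins at position 108836046 of chromosome 12, 162 bases from Slc25a29 on the other strand. Capitals mark matches, on either strand, to the CCAAT box (CCAAT), the GC box (GGGCGG), the ETS motif (CCGGAAG) and the nuclear receptor half-site (AGGTCA).
Slc25a42: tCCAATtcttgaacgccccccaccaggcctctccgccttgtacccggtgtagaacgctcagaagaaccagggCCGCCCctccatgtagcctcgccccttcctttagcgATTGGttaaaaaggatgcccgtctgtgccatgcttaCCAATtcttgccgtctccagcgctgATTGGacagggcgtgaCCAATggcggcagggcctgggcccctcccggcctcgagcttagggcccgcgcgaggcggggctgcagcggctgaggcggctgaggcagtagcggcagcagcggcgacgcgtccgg
Slc25a47: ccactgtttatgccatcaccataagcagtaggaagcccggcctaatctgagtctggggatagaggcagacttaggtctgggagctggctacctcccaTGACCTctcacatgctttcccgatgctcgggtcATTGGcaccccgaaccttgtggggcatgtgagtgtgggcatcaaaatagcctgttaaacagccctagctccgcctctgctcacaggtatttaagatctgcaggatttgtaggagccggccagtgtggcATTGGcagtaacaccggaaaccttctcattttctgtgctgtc
Slc25a34: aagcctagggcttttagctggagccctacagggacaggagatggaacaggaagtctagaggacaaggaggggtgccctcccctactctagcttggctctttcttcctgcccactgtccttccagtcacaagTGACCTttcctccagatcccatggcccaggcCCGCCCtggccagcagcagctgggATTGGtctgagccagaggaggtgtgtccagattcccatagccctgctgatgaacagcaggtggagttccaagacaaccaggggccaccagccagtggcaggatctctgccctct
Slc25a30: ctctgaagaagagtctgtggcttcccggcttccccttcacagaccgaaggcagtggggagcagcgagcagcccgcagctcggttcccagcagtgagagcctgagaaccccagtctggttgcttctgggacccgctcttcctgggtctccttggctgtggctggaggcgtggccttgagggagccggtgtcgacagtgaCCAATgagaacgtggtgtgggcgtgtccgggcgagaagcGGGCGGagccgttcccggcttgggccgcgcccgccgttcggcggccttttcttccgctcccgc
Slc25a4: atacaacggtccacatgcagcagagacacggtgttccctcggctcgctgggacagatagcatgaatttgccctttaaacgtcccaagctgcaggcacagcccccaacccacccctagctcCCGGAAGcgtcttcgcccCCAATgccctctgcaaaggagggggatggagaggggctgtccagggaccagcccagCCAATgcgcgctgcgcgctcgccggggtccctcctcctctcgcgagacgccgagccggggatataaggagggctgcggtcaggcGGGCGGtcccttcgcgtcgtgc
No marked matches overlap one another. All 5 windows hold a CCAAT box, which 37.4% of the 32851 mouse promoters in the table also hold. That of Slc25a42 has 5 copies, a number reached by 0.271% of all promoters and by no other promoter of the family. Copy number was compared in this way for this gene and motif alone. The percentage therefore does not measure how unusual such a count is among all the windows and motifs searched. The half-site is in the windows of Slc25a47 and Slc25a34, in both as TGACCT, 153 and 119 bases before the start, and in 16.3% of all promoters. RefSeq promoters were found for 33 of the 44 members, in 42 windows, which were rich in GC boxes. Of these windows 83.3% hold a GC box against 35.7% of all promoters, 21 of the 42 a CCAAT box, 14.3% the ETS motif against 8.86%, and 4.76% the TATA motif TATAAA against 13.6%. Median GC content was 59.0% in the family and 52.7% over all promoters. A match describes the letters of a window and is not a measured binding site.

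Between the groups, the family as a whole showed no common direction, and no member passed an adjusted p of 0.05 in edgeR's quasi-likelihood test in any comparison (plot of fold changes). In HFD + PBS against normal diet, 0% of all tested genes passed and the lowest adjusted p of a member was 0.0786. At an unadjusted p under 0.05, 4 of 38 members were higher and 7 lower, which is 10.5% and 18.4% of the members beside 9.41% and 11.4% of all tested genes. The CPM of the groups did not overlap for 5 higher and 11 lower members, or 13.2% and 28.9%, beside 13% and 15.3% of all tested genes. The members' median log2 fold change was -0.18, with -0.0028 over all genes. DESeq2 called 7 of 38 members in the same comparison, beside 1184 of 14763 tested genes, and limma-voom called 0 members and 0 genes. Without HFD + IgG1 replicate 6, edgeR called Slc25a42, Slc25a47 and Slc25a10 as lower, 3 of 38 members beside 576 of 15214 tested genes. That library is in neither group compared. It enters through the shared low count filter, scaling factors and estimate of spread. With the 3 discordant libraries left out, 9 members had an unadjusted p under 0.05 and none passed after adjustment. The share of all genes at that unadjusted threshold in this smaller fit is not given, so the count cannot be set against it.

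In HFD + IgG1 against HFD + PBS, again 0% of all tested genes and no member passed the adjusted threshold, the lowest adjusted p of a member being 0.14. At an unadjusted p under 0.05, 9 members were higher and 3 lower. That is 23.7% and 7.89% of the tested members, beside 12.6% and 11.6% of all genes. Groups did not overlap for 5 higher and 4 lower members (13.2% and 10.5%, beside 15.3% and 11.2% of all genes), and the median log2 fold change was 0.07. DESeq2 called 4 of 38 members, beside 1265 of 14763 tested genes, and limma-voom called 0 members and 0 genes. HFD + IgG1 replicate 6 was the antibody library nearest the HFD + PBS mean for 28 of 38 members. Without this library edgeR called 9 of 38 members (6 higher, 3 lower), beside 2356 of 15214 tested genes. Leaving out the library nearest the other group widens the difference by itself, so these calls are no added support. The cause of the change was not tested. Without the 3 discordant libraries, 3 members had an unadjusted p under 0.05. Again the share of all genes in that fit is not given, so the lower count is not a result about the family.

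In HFD + IgG1 against normal diet 0% of all tested genes passed, and the lowest adjusted p of a member was 0.414. At an unadjusted p under 0.05, 3 members were higher and 5 lower (7.89% and 13.2%, beside 3.83% and 3.21% of all genes). Without overlap there were 2 higher and 8 lower members (5.26% and 21.1%, beside 5.54% and 6.41% of all genes), and the median log2 fold change was 0.08. DESeq2 called 4 of 38 members, beside 111 of 14763 tested genes, and limma-voom called 0 members and 0 genes. With the 3 libraries left out, 6 members had an unadjusted p under 0.05, also without a share of all genes to set beside it. The 3 comparisons share groups in pairs, so the values of a member in one are not independent of those in another and are given side by side.

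**Figure D2:**
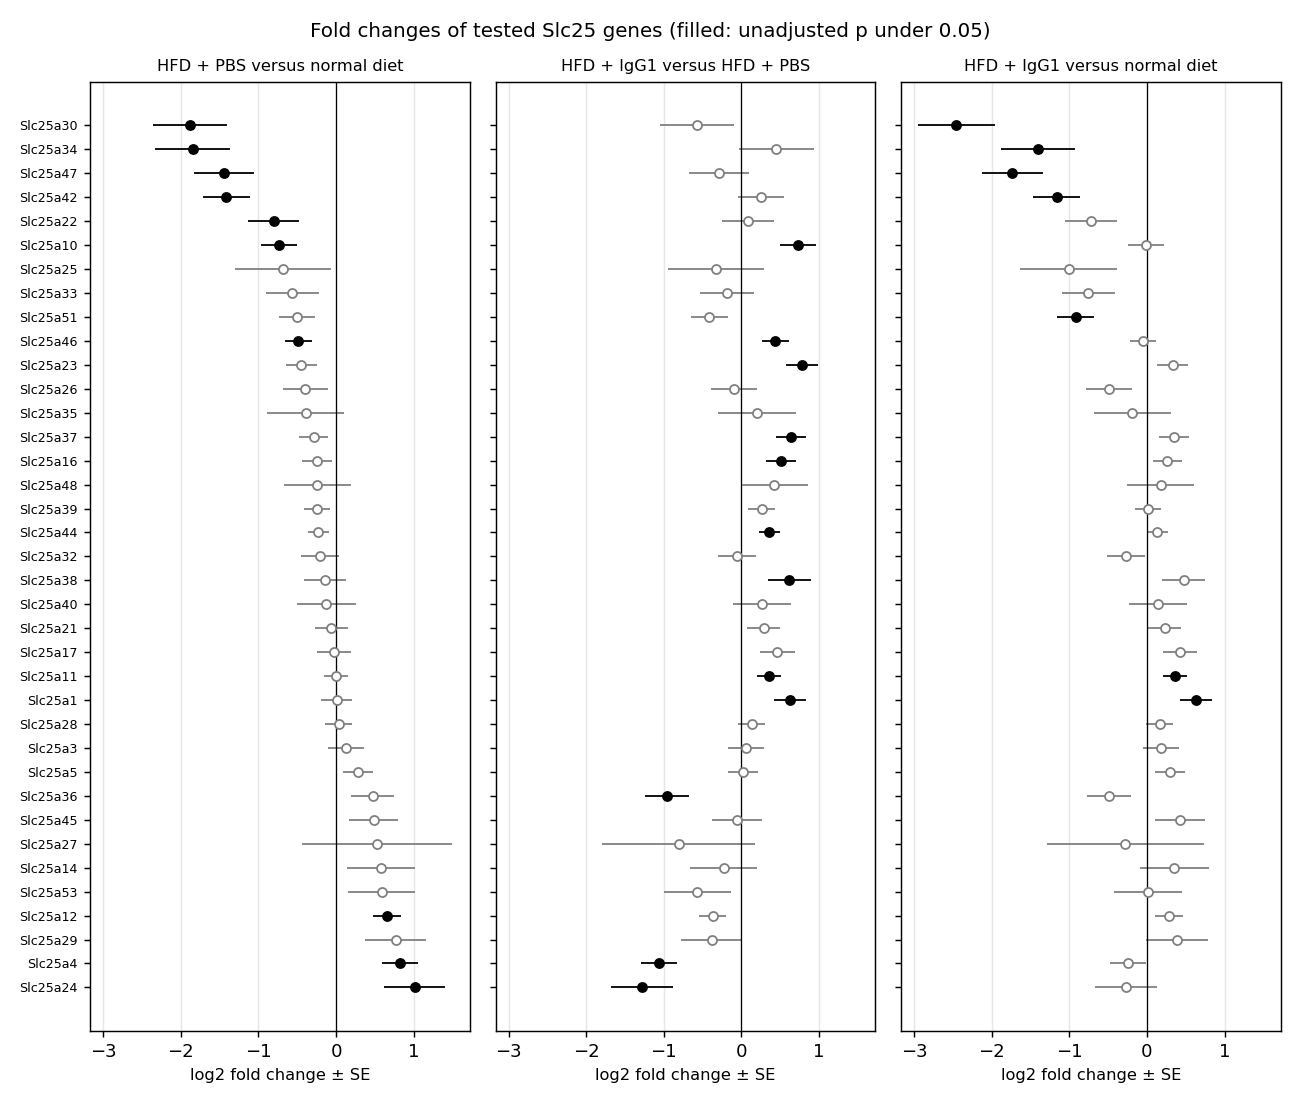
edgeR log2 fold change ± SE of tested Slc25 genes in the 3 comparisons, ordered by HFD + PBS against normal diet, with filled points at an unadjusted p under 0.05. Slc25a30, Slc25a34, Slc25a47 and Slc25a42 lie lowest in the left and right panels, and Slc25a4 and Slc25a24 change side between the left and middle panels.

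The ADP/ATP carriers exchange cytosolic ADP for matrix ATP. Their minor liver form, Slc25a4 (the heart and muscle type), was higher with HFD + PBS than in either other group, while the major form, Slc25a5, had values that overlapped between groups. Slc25a4 stood at 8.37, 11.7 and 10.1 CPM in normal diet replicates 4, 5 and 6, at 21.2, 16.4 and 15.8 CPM in replicates 3, 4 and 6 of HFD + PBS, and at 6.92, 11.1 and 7.37 CPM in replicates 5, 6 and 7 of HFD + IgG1; per-library values below keep this order. Every HFD + PBS liver was above all 6 others. On the log2 scale the fold change was 0.82 (SE 0.23, edgeR adjusted p = 0.12) for HFD + PBS against normal diet. HFD + IgG1 against HFD + PBS gave -1.07 (SE 0.23, edgeR adjusted p = 0.14), and -1.06 without the 3 discordant libraries. Between HFD + IgG1 and normal diet it was -0.25 (SE 0.23), with overlapping values.

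Slc25a5 measured 221, 199 and 280 CPM in the normal diet group, 258, 310 and 285 CPM with HFD + PBS and 290, 234 and 338 CPM with HFD + IgG1. The ranges of all 3 groups overlapped, and its log2 fold changes were 0.29 (SE 0.19), 0.02 (SE 0.19) and 0.30 (SE 0.19) in the 3 comparisons, in the order HFD + PBS against normal diet, HFD + IgG1 against HFD + PBS, HFD + IgG1 against normal diet. Per kb, Slc25a4 made up 3.0% ± 0.836 (SD, n = 3) of the pair in the normal diet group, 4.24% ± 1.03 with HFD + PBS and 2.12% ± 0.951 with HFD + IgG1. The 3.57% of HFD + PBS replicate 4 lay below the 3.96% of normal diet replicate 5, so this share overlapped between these groups. Slc25a5 has near-identical copies in the genome, and how the authors' counting treated reads that match several places is not given, so its level is uncertain. The phosphate carrier Slc25a3, which supplies phosphate for ATP synthesis, measured 199, 187 and 298, then 198, 295 and 253, then 254, 219 and 301 CPM. Its groups overlapped throughout.

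The calcium-regulated ATP-Mg/phosphate carriers adjust the adenine nucleotide pool of the matrix, and their forms had fold changes of opposite sign. Slc25a24 measured 7.69, 7.57 and 3.54 CPM in the normal diet group, 18.4, 8.75 and 10.9 CPM with HFD + PBS and 3.71, 7.37 and 4.47 CPM with HFD + IgG1. As with Slc25a4, all 3 HFD + PBS livers were above the 6 others. Its log2 fold change was 1.02 (SE 0.39, edgeR adjusted p = 0.193) for HFD + PBS against normal diet and -1.28 (SE 0.40, edgeR adjusted p = 0.14) for HFD + IgG1 against HFD + PBS. Slc25a23, the more abundant form, measured 212, 236 and 215, then 136, 188 and 162, then 338, 210 and 287 CPM. It was lowest in the HFD + PBS livers, with no overlap with either other group. HFD + IgG1 against HFD + PBS gave a log2 fold change of 0.78 (SE 0.20, adjusted p = 0.14 in edgeR), which was 0.57 without the 3 discordant libraries, and HFD + PBS against normal diet gave -0.45 (SE 0.20, edgeR adjusted p = 0.241).

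Slc25a25, the third form, varied widely within groups. Its levels were 183, 169 and 441 CPM in the normal diet group, 58.5, 166 and 270 CPM with HFD + PBS and 74.5, 106 and 214 CPM with HFD + IgG1, and all groups overlapped. The log2 fold changes were -0.68 (SE 0.62), -0.33 (SE 0.62) and -1.01 (SE 0.62) in the 3 comparisons. Leaving out libraries moved these sizes by over 1.5 times. Omitting normal diet replicate 6, its highest library, gave -0.10 in the first comparison and -0.42 in the last, and omitting the 3 discordant libraries gave -1.44 in the first and 0.46 in the second. Its part of the 3 forms, per kb, ran from 12.7% to 57.3% over the 9 libraries. The share of Slc25a23 was 56.0% ± 12.6 in the normal diet group, 57.2% ± 11.2 with HFD + PBS and 74.4% ± 10.4 with HFD + IgG1 (SD, n = 3), and 65.6% in HFD + IgG1 replicate 7 lay below the 66.8% of HFD + PBS replicate 3.

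**Figure D3:**
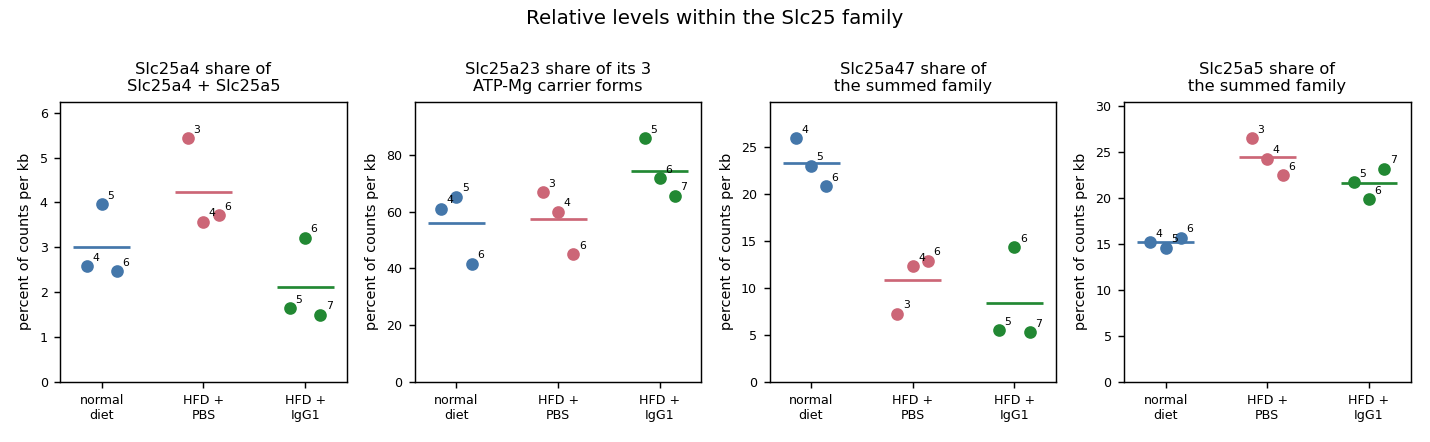
Shares of counts per kb of exon, in percent, in the 9 libraries (points, numbered by replicate) with group means (lines), for Slc25a4 within the ADP/ATP carrier pair, Slc25a23 within the 3 ATP-Mg/phosphate carriers, and Slc25a47 and Slc25a5 within the summed family. The Slc25a47 share was 20.8% to 25.9% in the normal diet livers and at most 14.3% in the others.

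Among the carboxylate carriers, Slc25a10 was lower with HFD + PBS than with normal diet, and Slc25a1 was higher with HFD + IgG1. Slc25a10 exchanges malate or succinate for phosphate. It measured 134, 159 and 183 CPM in the normal diet group, 93.3, 91.3 and 101 CPM with HFD + PBS and 186, 101 and 186 CPM with HFD + IgG1. The HFD + PBS values lay below all normal diet values and overlapped with HFD + IgG1 only at replicate 6. For HFD + PBS against normal diet the log2 fold change was -0.74 (SE 0.23, edgeR adjusted p = 0.145). Against HFD + PBS, HFD + IgG1 gave 0.73 (SE 0.23, edgeR adjusted p = 0.141), and 0.97 with an edgeR adjusted p of 0.0078 without HFD + IgG1 replicate 6. That library had the value nearest HFD + PBS, so leaving it out had to widen the difference, and the lower p is no added support. A part of the Slc25a10 exons, 6.6%, also belongs to a gene on the opposite strand.

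Slc25a1 exports citrate, the source of cytosolic acetyl-CoA. Its values were 109, 97.3 and 140 CPM in the normal diet group, 104, 129 and 115 CPM with HFD + PBS and 198, 136 and 204 CPM with HFD + IgG1. HFD + IgG1 was above HFD + PBS in every library, while normal diet replicate 6 exceeded HFD + IgG1 replicate 6. Its log2 fold change was 0.63 (SE 0.20, edgeR adjusted p = 0.141) against HFD + PBS and 0.63 (SE 0.20, edgeR adjusted p = 0.6) against normal diet. The 2 high-fat groups without the 3 discordant libraries differed by 0.49. Between HFD + PBS and normal diet Slc25a1 differed by 0.01 (SE 0.20). The oxoglutarate/malate carrier Slc25a11 averaged 47.9 ± 3.78, 48 ± 1.13 and 61.4 ± 11 CPM in the 3 groups (normal diet, HFD + PBS, HFD + IgG1, SD, n = 3). It was 0.36 higher (SE 0.15, edgeR adjusted p = 0.696) in HFD + IgG1 than in normal diet on the log2 scale. Slc25a21, which carries oxoadipate and other oxodicarboxylates, averaged 8.41 ± 1.48, 8.06 ± 0.837 and 9.85 ± 1.74 CPM, and its groups overlapped.

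Of the amino acid carriers, the aspartate/glutamate carrier Slc25a12, the form known best from muscle and brain, was higher with HFD + PBS than with normal diet. Its levels were 16.1, 20 and 22.1, then 31.4, 33.8 and 26.7, then 23.9, 27 and 20.1 CPM. No HFD + PBS liver overlapped with the normal diet group, while HFD + IgG1 replicate 6 came just above HFD + PBS replicate 6. This gave a log2 fold change of 0.66 (SE 0.18, adjusted p = 0.112 in edgeR), or 0.80 without the 3 discordant libraries. For HFD + IgG1 against HFD + PBS it was -0.37 (SE 0.18). The glutamate carrier Slc25a22 averaged 259 ± 61.8 CPM in the normal diet group, 148 ± 69.4 with HFD + PBS and 157 ± 35.1 with HFD + IgG1. It differed by -0.81 (SE 0.33, edgeR adjusted p = 0.215) for HFD + PBS against normal diet (-1.27 without the 3 discordant libraries) and by -0.72 (SE 0.33, edgeR adjusted p = 0.709) for HFD + IgG1 against normal diet.

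Slc25a44 imports branched-chain amino acids. It measured 74.3, 68.3 and 64.5, then 55.6, 60 and 61.2, then 76.5, 66.7 and 83.8 CPM, lowest in the 3 HFD + PBS livers, which overlapped with neither other group. HFD + IgG1 against HFD + PBS gave a log2 fold change of 0.36 (SE 0.14, adjusted p = 0.162 in edgeR), a small difference between groups of low spread. Slc25a38, the glycine carrier that feeds heme synthesis, averaged 16.3 ± 3.27, 14.7 ± 1.57 and 22.6 ± 9.18 CPM, the high SD of HFD + IgG1 coming from 32.7 CPM in replicate 7 (edgeR adjusted p = 0.206 against HFD + PBS). Slc25a29, a carrier of basic amino acids, averaged 1.85 ± 0.632, 3.16 ± 0.785 and 2.42 ± 0.943 CPM with overlap in all comparisons.

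**Figure D4:**
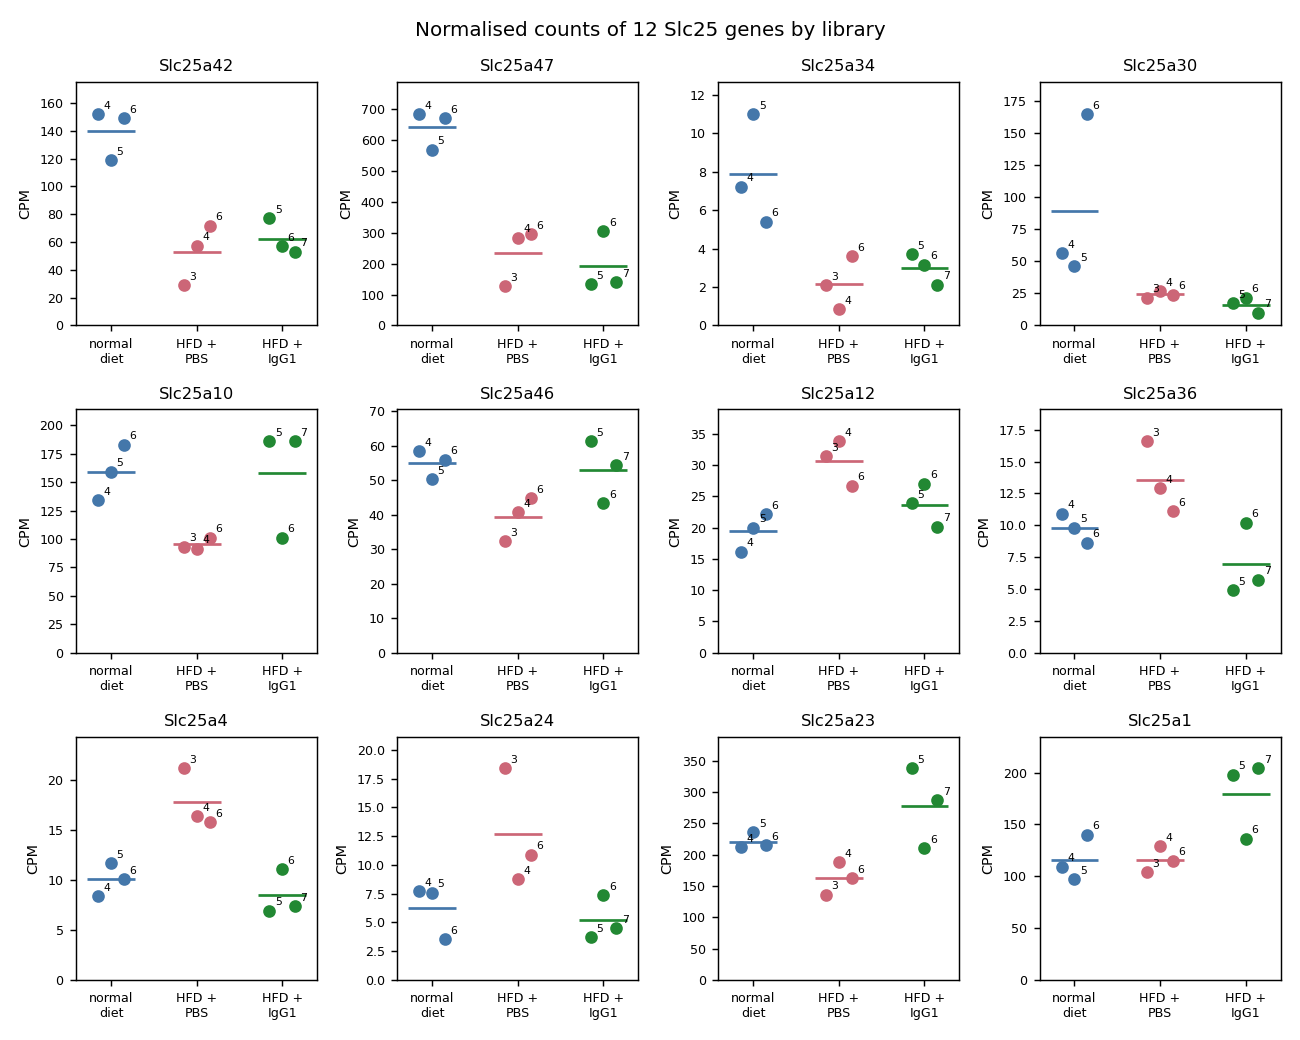
CPM of 12 Slc25 genes in each library (points, numbered by replicate) with group means (lines), axes starting at 0. Normal diet livers are above all others for Slc25a42, Slc25a47, Slc25a34 and Slc25a30, and HFD + PBS livers are above all others for Slc25a4, Slc25a24 and Slc25a36 and below all others for Slc25a23.

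Carriers of cofactors held the member with the smallest p for the diet. Slc25a42 imports coenzyme A in exchange for adenine nucleotides. Its levels were 152, 119 and 149 CPM with normal diet, 28.8, 57.2 and 71.8 CPM with HFD + PBS and 77.3, 57.1 and 53.1 CPM with HFD + IgG1. Every normal diet liver was above every high-fat liver, and the high-fat groups overlapped each other. The log2 fold change was -1.41 (SE 0.30, edgeR adjusted p = 0.0786) for HFD + PBS and -1.16 (SE 0.30, edgeR adjusted p = 0.478) for HFD + IgG1, each against normal diet. Without the 3 discordant libraries these were -1.78 and -1.46. HFD + IgG1 against HFD + PBS gave 0.25 (SE 0.30). DESeq2 gave an adjusted p of 0.00113 for the first of these comparisons, and edgeR without a filter on low counts 0.0403, while limma-voom called 0 members. This is the gene whose promoter window, shown above, holds 5 CCAAT boxes, and any link of these to the difference was not tested.

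Slc25a51, which brings NAD into the matrix, was lowest with HFD + IgG1. Its levels were 96.2, 83.3 and 106, then 49.3, 77.4 and 74.5, then 35, 55.4 and 60.4 CPM, and all normal diet livers were above the high-fat ones. Against normal diet the log2 fold change was -0.92 (SE 0.24, edgeR adjusted p = 0.478) for HFD + IgG1 and -0.50 (SE 0.24, edgeR adjusted p = 0.255) for HFD + PBS. Slc25a16, linked to coenzyme A supply, averaged 70.8 ± 5.6, 59.8 ± 12.3 and 85 ± 15.3 CPM. HFD + IgG1 against HFD + PBS gave 0.51 (SE 0.19, edgeR adjusted p = 0.162), with overlap.

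The pyrimidine nucleotide carriers were unlike each other. Slc25a36 measured 10.9, 9.8 and 8.64, then 16.6, 12.9 and 11.1, then 4.92, 10.2 and 5.74 CPM. All HFD + PBS livers were above the 6 others, as for Slc25a4 and Slc25a24. HFD + IgG1 against HFD + PBS gave a log2 fold change of -0.95 (SE 0.28, adjusted p = 0.14 in edgeR). It was -1.34 with an edgeR adjusted p of 0.00929 without HFD + IgG1 replicate 6. Here too that library had the value nearest HFD + PBS, so leaving it out had to widen the difference. HFD + PBS against normal diet gave 0.47 (SE 0.28, edgeR adjusted p = 0.361). Slc25a33 averaged 22.8 ± 7.68, 15.4 ± 7.15 and 13.5 ± 1.51 CPM, and measured 23.9, 14.6 and 29.8 CPM with normal diet against 14.3, 14.4 and 11.8 CPM with HFD + IgG1. These groups just did not overlap, and the log2 fold change was -0.75 (SE 0.34, edgeR adjusted p = 0.708). Of its exon bases 14.9% overlap a gene on the opposite strand.

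The remaining cofactor, glutathione and choline carriers had no unadjusted p under 0.05 in any comparison. Slc25a39 averaged 312 ± 35.1, 263 ± 26.4 and 315 ± 37.3 CPM, with HFD + PBS below normal diet in every library (log2 fold change -0.24, SE 0.17, edgeR adjusted p = 0.438). Its paralog Slc25a40 averaged 3.55 ± 1.38, 3.25 ± 1.13 and 3.92 ± 0.299 CPM. The S-adenosylmethionine carrier Slc25a26 averaged 7.29 ± 1.27, 5.55 ± 1.21 and 5.19 ± 1.74 CPM. Slc25a32, the folate carrier, averaged 38.8 ± 0.953, 33.6 ± 13.3 and 32.3 ± 3.72 CPM. The groups of these 3 genes overlapped, except that Slc25a32 was below normal diet in every HFD + IgG1 library (log2 fold change -0.27, SE 0.25, edgeR adjusted p = 0.823). Slc25a17, a peroxisomal carrier of cofactors, averaged 37.5 ± 12.4, 36.7 ± 4.14 and 50.6 ± 6.07 CPM, with HFD + IgG1 above HFD + PBS in every library (log2 fold change 0.46, SE 0.22, edgeR adjusted p = 0.227). The choline carrier Slc25a48 averaged 11.7 ± 6.1, 9.9 ± 2.36 and 13.3 ± 5.85 CPM.

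The mitoferrins bring iron in for heme and iron-sulfur clusters. Slc25a37 (mitoferrin-1), the form prominent in erythroid cells, measured 36, 28.9 and 41 CPM with normal diet, 33.2, 22.1 and 31.4 CPM with HFD + PBS and 48.9, 42.5 and 43.5 CPM with HFD + IgG1. All HFD + IgG1 livers were above the 6 others. Against HFD + PBS the log2 fold change was 0.64 (SE 0.19, edgeR adjusted p = 0.14), and 0.59 without the 3 discordant libraries. Summed over 6 erythroid markers, levels overlapped, at 187 to 358 CPM with normal diet, 175 to 565 with HFD + PBS and 235 to 486 with HFD + IgG1. Of the 5 that were tested, Alas2, which makes heme in erythroid cells, had the same signs as Slc25a37, at -1.44 (SE 0.68, edgeR adjusted p = 0.274) for HFD + PBS against normal diet and 2.15 (SE 0.70, edgeR adjusted p = 0.145) for HFD + IgG1 against HFD + PBS. The 4 globin genes had the opposite signs. The part of erythroid cells in the Slc25a37 difference was not tested. Slc25a28 (mitoferrin-2), the broadly expressed form, averaged 13.3 ± 1.76, 13.6 ± 0.824 and 14.9 ± 2.19 CPM, so no group stood apart.

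The largest fold changes against normal diet were in members with an uncertain or disputed substrate. Slc25a47, a liver-enriched inner membrane protein, measured 685, 569 and 671 CPM with normal diet, 128, 284 and 296 CPM with HFD + PBS and 134, 306 and 140 CPM with HFD + IgG1. The lowest normal diet liver was well above the highest high-fat liver. The log2 fold change against normal diet was -1.44 (SE 0.39, edgeR adjusted p = 0.116) for HFD + PBS and -1.73 (SE 0.39, edgeR adjusted p = 0.45) for HFD + IgG1. Without the 3 discordant libraries these were -1.69 and -1.61. DESeq2 gave adjusted p values of 0.00783 and 0.00283, while limma-voom called 0 members in both comparisons. The high-fat groups differed from each other by -0.29 (SE 0.38). Per kb, Slc25a47 went from 23.2% ± 2.58 of the summed family with normal diet to 10.8% ± 3.09 with HFD + PBS and 8.37% ± 5.16 with HFD + IgG1 (SD, n = 3). The Slc25a5 share was 15.2% ± 0.53, 24.4% ± 2.0 and 21.6% ± 1.63, so on the scale per kb Slc25a47 was the leading member with normal diet and Slc25a5 in both high-fat groups. These shares depend on each other, since one enters the total of the other.

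Slc25a30, an uncoupling-protein-like member first found in kidney, measured 56.3, 46.3 and 165 CPM with normal diet, 21.7, 26.9 and 24.1 CPM with HFD + PBS and 17.2, 21.5 and 10.1 CPM with HFD + IgG1. Normal diet replicate 6 stood far above its group, yet the other normal diet livers were also above every high-fat liver. Its log2 fold change was -1.88 (SE 0.48, edgeR adjusted p = 0.11) for HFD + PBS and -2.45 (SE 0.49, edgeR adjusted p = 0.414) for HFD + IgG1 against normal diet. Its size rests in part on that library, since over all alternatives the first value ranged from -2.19 to -1.08 and the second from -2.80 to -1.65. The other uncoupling-protein-like members were near the limit of the data. Slc25a14 averaged 1.5 ± 0.3, 2.26 ± 0.663 and 1.93 ± 0.911 CPM and Slc25a27 0.682 ± 0.797, 1 ± 0.406 and 0.558 ± 0.397 CPM.

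Slc25a34, whose substrate is not settled, measured 7.21, 11 and 5.4 CPM with normal diet, 2.08, 0.858 and 3.61 CPM with HFD + PBS and 3.71, 3.15 and 2.11 CPM with HFD + IgG1. Again no high-fat liver reached the normal diet range. The log2 fold change against normal diet was -1.85 (SE 0.48, edgeR adjusted p = 0.107) for HFD + PBS and -1.40 (SE 0.48, edgeR adjusted p = 0.611) for HFD + IgG1. Its paralog Slc25a35 averaged only 1.21 ± 0.306, 0.918 ± 0.409 and 1.06 ± 0.398 CPM, and 31.3% of its exon bases overlap Rangrf on the opposite strand, so its counts may hold reads of that gene. Slc25a45 averaged 12.4 ± 5.59, 17.4 ± 4.83 and 16.7 ± 0.969 CPM and Slc25a53 1.54 ± 0.677, 2.32 ± 0.725 and 1.56 ± 0.372 CPM, both with overlap.

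Slc25a46 sits in the outer membrane, where it takes part in mitochondrial fusion and fission. It measured 58.4, 50.3 and 55.9, then 32.3, 40.7 and 44.7, then 61.3, 43.3 and 54.4 CPM. HFD + PBS lay below normal diet in every library and overlapped with HFD + IgG1 at replicate 6. edgeR gave a log2 fold change of -0.48 (SE 0.17, adjusted p = 0.172 in edgeR) for HFD + PBS against normal diet and 0.43 (SE 0.17, edgeR adjusted p = 0.175) for HFD + IgG1 against HFD + PBS.

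Markers of other cells moved with several of these results. Slc25a4, Slc25a24 and Slc25a36 were each highest in HFD + PBS replicate 3, and each was highest within HFD + IgG1 in replicate 6, the libraries with the highest neutrophil, macrophage and cholangiocyte marker sums of those groups. The last of these sums was mostly Spp1. All 8 neutrophil markers had a positive fold change in HFD + PBS against normal diet and a negative one in HFD + IgG1 against HFD + PBS, as did all 8 macrophage markers. Of these, 6 neutrophil and 3 macrophage markers had an unadjusted p under 0.05 in the first comparison, or 75% and 37.5%, beside 9.41% of all genes higher. In the second 2 and 6 did, or 25% and 75%, beside 11.6% of all genes lower. In HFD + IgG1 replicate 6, Slc25a1, Slc25a10, Slc25a11, Slc25a16 and Slc25a23 were in turn at their lowest of the group. They are not particular in this, since that library was the lowest of its group for 22 of 38 members. Summed over 8 hepatocyte markers, of which Alb is the largest (37900 to 138000 CPM), that library had 87400 CPM. Replicates 5 and 7 had 161000 and 128000 CPM, and the normal diet livers less than all 3, at 73700 to 82700. The 8 markers had mixed signs, with 2 positive and 6 negative fold changes in the first comparison and 6 positive and 2 negative in the second. HFD + PBS replicate 3 had 49900 CPM of hepatocyte markers, the lowest of all, and was the lowest library of its group for 23 of 38 members. The part of other cells in these differences was not tested.

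Spread within groups was otherwise similar, with a median coefficient of variation over the 38 members of 17.8% with normal diet, 20.7% with HFD + PBS and 21.5% with HFD + IgG1. Normal diet replicate 6 was the highest of its group for 22 members, among them Slc25a25, Slc25a30 and Slc25a22.

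Genes around the family were described from lists, in which genes are counted as higher or lower at an unadjusted p under 0.05. Family genes with other symbols include Ucp2, an uncoupling protein prominent in immune cells, whose log2 fold change was 0.60 (SE 0.42) for HFD + PBS against normal diet and -1.34 (SE 0.42, edgeR adjusted p = 0.141) for HFD + IgG1 against HFD + PBS, without overlap in the latter. Ucp1 and Ucp3 were near 0, and Mtch1 and Mtch2, which belong to the outer membrane, overlapped in all comparisons. Of 10 genes of the import machinery that inserts carriers into the inner membrane, 1 was lower in HFD + PBS against normal diet (Tomm70a, a receptor for carrier precursors, -0.48, SE 0.16). With HFD + IgG1 against HFD + PBS 1 was higher (Timm29, a subunit of the carrier translocase, 0.75, SE 0.20). That is 10% of the list each time, beside 11.4% of all tested genes lower in the first comparison and 12.6% higher in the second. The median log2 fold changes of this list were -0.11 and 0.18.

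Of 14 other mitochondrial transporters and porins, 1 was lower and 1, Sfxn3, higher at 0.96 (SE 0.37) at an unadjusted p under 0.05 in HFD + PBS against normal diet, or 7.14% each way, beside 11.4% lower and 9.41% higher of all genes. In HFD + IgG1 against HFD + PBS 4 were higher and 1 lower, or 28.6% and 7.14%, beside 12.6% and 11.6% of all genes. Abcb10 was at 1.05 (SE 0.30), the serine carrier Sfxn1 at 0.48 (SE 0.15) and Sfxn5 at 0.73 (SE 0.23), and the lower gene was Sfxn3 at -0.96 (SE 0.37). None had an unadjusted p under 0.05 in HFD + IgG1 against normal diet.

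Among 17 enzymes that use carrier substrates, 3 were lower at an unadjusted p under 0.05 in HFD + PBS against normal diet, or 17.6%, beside 11.4% of all genes. In all, 13 of the 17 had a negative fold change. The 3 were the malic enzyme Me1 (-2.26, SE 0.43, edgeR adjusted p = 0.078), the aspartate aminotransferase Got2 (-0.52, SE 0.20) and the glycine decarboxylase Gldc (-0.54, SE 0.21). In HFD + IgG1 against HFD + PBS 6 were higher (35.3%, beside 12.6% of all genes), with Me1 at 1.56 (SE 0.42), Got2 at 0.64 (SE 0.20) and Gldc at 0.63 (SE 0.21). In HFD + IgG1 against normal diet 1 was higher and 1 lower, or 5.88% each way, beside 3.83% higher and 3.21% lower of all genes. The higher gene was the citrate-using Acly (0.87, SE 0.24) and the lower the gluconeogenic Pck1 (-1.65, SE 0.72). Of 19 genes of mitochondrial content and biogenesis, 5 were lower at the same threshold in HFD + PBS against normal diet (26.3%, beside 11.4% of all genes), and 15 had a negative fold change (median -0.27). The 5 include Opa1 (-0.46), Ppargc1b (-1.03) and Hspd1 (-0.48). In HFD + IgG1 against HFD + PBS 4 were higher (21.1%, beside 12.6% of all genes, median 0.30), with Opa1 at 0.68, Lonp1 at 0.54 and Immt at 0.47. No gene of these lists passed the adjusted threshold in edgeR, at 0% of all genes tested.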

How the data were processed

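Liver RNA was sequenced from 9 mice, with 1 µg of RNA per liver and NEBNext Ultra libraries per the labels' protocols. The authors deposited raw whole-number counts per Ensembl gene ID. Build mm10 and Bowtie 0.12.2 appear in the submitters' processing notes, with no role. The counting program, its annotation, strand setting and handling of multiply matching reads were, for these counts, not given in the sources used. Reads of overlapping genes, near-identical copies and antisense partners cannot be told apart, and 14 members have exons that overlap another gene.

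GENCODE M21 named 54495 of the 54532 IDs, and 37 stayed unnamed. Testing used edgeR 4.0.16 (R 4.3.3) with TMM factors of 0.865 to 1.26, a filterByExpr minimum of 10 counts and 15 in total, a group-means model over all 9 libraries (3 per group), robust glmQLFit and a two-sided glmQLFTest, adjusted by Benjamini-Hochberg over 14763 genes. The biological coefficient of variation was 0.318. The SE is the unshrunk log2 fold change over the root of the F statistic. An exact test of 3 against 3 cannot go below 0.1 and was not run. The workflow was tested on simulated data and recovered 20, 13 and 14 of 100 genes changed 2-fold and 72, 73 and 65 of 100 changed 4-fold, on 14489, 14500 and 14496 genes, in the order HFD + PBS against normal diet, HFD + IgG1 against HFD + PBS, HFD + IgG1 against normal diet.

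The members and gene lists were chosen with earlier results of these data known, as was the alternative without 3 libraries. Every tested member is named except 1, which like 1 gene of a list is not reported here. Fold change, SE and adjusted p go to the 10 members of smallest p in each comparison, values in every library to those of them without overlap and to Slc25a1, Slc25a3, Slc25a4, Slc25a5, Slc25a10, Slc25a25, Slc25a37 and Slc25a47, and up to 3 genes of smallest p are named from a list. Libraries were counted as nearest a group mean on log2(CPM + 0.5). Alternatives were DESeq2 1.42.0, limma-voom (limma 3.58.1), RLE and upper-quartile factors, no low count filter, only the 6 libraries compared, the replicate number as a block, and leaving out each library or the 3 discordant ones. Within groups, libraries differed far beyond counting noise (chi-square per gene 59.8 to 206). Limits from counts cover counting error only.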

Additional observations from a re-analysis of the deposited data

How the results depend on the processing

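With HFD + PBS against normal diet, HFD + IgG1 against HFD + PBS and HFD + IgG1 against normal diet in this order, edgeR called 0 genes in each. DESeq2 called 1184, 1265 and 111 of 14763 genes and 7, 4 and 4 of 38 members. By contrast, limma-voom, RLE factors and upper-quartile factors called 0 genes and 0 members in each comparison. At unadjusted p under 0.05 edgeR had 11, 12 and 8 members, and no filter on low counts gave 274, 57 and 6 genes, with 1 member (Slc25a42) in the first. Only the 6 libraries compared gave 184 genes in the first and 3 in the last comparison. Leaving out each library in turn gave 0 to 576, 0 to 2356 and 0 to 6 called genes and 0 to 3, 0 to 9 and 0 called members, the highest counts all without HFD + IgG1 replicate 6. Without HFD + PBS replicate 6 the counts were 14 and 4 genes in the first and last comparison. Members at unadjusted p under 0.05 then ran from 9 to 14, 5 to 15 and 7 to 11, with 6 and 5 in the second comparison without HFD + IgG1 replicates 5 and 7. The members' median log2 fold change ran from -0.19 to -0.08, -0.13 to 0.18 and -0.02 to 0.19. It changed sign in the second comparison without HFD + PBS replicate 3 (-0.07) or HFD + IgG1 replicate 7, and in the last without normal diet replicate 4. Without the 3 discordant libraries, 2 genes were called in the first comparison and 3 members had an unadjusted p under 0.05 in the second. For fits with libraries left out or with the replicate block, the share of all genes at that unadjusted threshold is not given.

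The main fit did not treat replicate numbers as pairs. Correlations of deviations from group means ran from -0.494 to 0.007 for same-numbered libraries and from -0.347 to 0.425 for others. Deviations within a group of 3 depend on each other, so these values cannot decide whether the numbers pair the mice. With the replicate block the members at unadjusted p under 0.05 were 6, 2 and 7, so that the last comparison then had the most, and the medians were -0.02, -0.15 and -0.05, the last 2 with changed sign. Upper-quartile factors gave a median of -0.02 in the second comparison, and moved the share of higher genes among all genes at unadjusted p under 0.05 from 52.2% to 40.7% there; in the first they moved it from 45.2% to 54.8%. Signs of members near 0 also changed. In the first comparison Slc25a1 was -0.07 without the 3 discordant libraries and ran from -0.1 to 0.17 with 1 library left out, at -0.05 when that was HFD + PBS replicate 4. In the second, Slc25a25 was 0.46 and Slc25a47 0.08 without the 3 discordant libraries, and Slc25a25 ran from -0.9 to 0.23 with 1 library left out. Slc25a3 was -0.03 with upper-quartile factors, -0.18 with the replicate block, 0 with only the 6 libraries and from -0.11 to 0.16 with 1 library left out. Slc25a5 was -0.02 with DESeq2 and RLE factors, -0.07 with upper-quartile factors, -0.03 without the filter, -0.16 with the replicate block, -0.04 with only the 6 libraries or without the 3 discordant ones, and from -0.15 to 0.15 with 1 left out. In the last comparison Slc25a10 ran from -0.16 to 0.23 with 1 library left out, the latter when HFD + IgG1 replicate 6 was. The cause of these changes was not tested. All 10 members of smallest p in each comparison kept their sign under every alternative run. With 3 livers a group, most changes of 2-fold would be missed, as in the simulated data.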
